A study of Mus musculus with 3 samples.

Results

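Carbonic anhydrases are zinc enzymes that interconvert carbon dioxide and water with bicarbonate and a proton. The 10 genes described here, Car1, Car2, Car3, Car4, Car7, Car8, Car9, Car12, Car13 and Car14, were taken by symbol from a table of 24091 genes, and all 10 were found in it. Their values come from bulk RNA-seq of lymphatic endothelial cells sorted from the large intestine of C57BL/6 mice with markers that include CD31, podoplanin and LYVE1. There is 1 group of 3 libraries, here replicates 1, 2 and 3, with no second condition, and the labels give no age, sex, genotype change or treatment for it. The names of the deposited files carry the word water and numbers that the labels do not explain, and neither was used. Separate animals or preparations are not named for the libraries, and differences among them may thus be technical. Levels are in TPM, a relative transcript abundance corrected for transcript length that allows genes to be compared with each other. Coordinates are 1-based and those of RefSeq on GRCm38, the assembly behind mm10.

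Members of the family differ mainly in where the enzyme sits. Car1, Car2, Car3, Car7 and Car13 encode cytosolic enzymes. Car4 encodes an enzyme held on the outer cell surface by a lipid (GPI) anchor, and Car9, Car12 and Car14 encode transmembrane enzymes whose catalytic domain faces outward. Car8 encodes a related protein that lacks the enzyme activity. In the colon, carbonic anhydrases of surface epithelial cells supply the bicarbonate and protons that are exchanged for chloride and sodium. Car1 and Car2 are also abundant in red blood cells, and Car4 is known from the luminal face of capillary endothelium as well as from colonocytes.

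The labelled cell type was checked first. Each of the 10 lymphatic endothelial marker genes in the table was expressed, taken here as a level of at least 1 TPM in each of the 3 libraries, and together they summed to 1653, 1728 and 955 TPM in replicates 1, 2 and 3. The 7 pan-epithelial genes, which include Krt8 and Lgals4, summed to 12880, 13388 and 14356 TPM, so the libraries held abundant epithelial RNA beside that of lymphatic cells. Replicate 3 stood apart by its summed fibroblast genes (182, 124 and 448 TPM over 7 genes) and macrophage genes (248, 173 and 550 TPM over 8 genes). In bulk RNA, fewer cells of a type cannot be told apart from less RNA per cell. The median deviation of expressed genes from their own mean over the libraries was -0.13, 0.08 and 0.06 on the log2(TPM + 1) scale, so a value somewhat lower in replicate 1 was usual.

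Promoter sequence was read for the surface enzymes, because Car9 is a textbook target of the hypoxia-inducible factors, which bind the core letters ACGTG or GCGTG. RefSeq promoter windows of 300 bases, from 250 before to 50 after the start site, were found for 5 of the 10 members: Car4, Car7, Car9, Car12 and Car14. The windows of Car4, Car9 and Car14 each hold ACGTG once, on the strand opposite to the gene, and are shown from 100 bases before to 20 bases after the start site. They span chr11:84957654-84957773 (forward strand) for Car4, chr4:43506926-43507045 (forward) for Car9 and chr3:95904666-95904785 (reverse) for Car14. Each sequence reads 5′ to 3′ along the gene, and the capitals mark the match, which appears as its reverse complement.
Car4: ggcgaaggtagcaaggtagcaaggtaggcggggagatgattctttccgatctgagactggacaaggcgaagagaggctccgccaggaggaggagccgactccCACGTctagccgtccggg
Car9: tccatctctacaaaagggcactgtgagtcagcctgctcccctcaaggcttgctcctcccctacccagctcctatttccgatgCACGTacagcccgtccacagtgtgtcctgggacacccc
Car14: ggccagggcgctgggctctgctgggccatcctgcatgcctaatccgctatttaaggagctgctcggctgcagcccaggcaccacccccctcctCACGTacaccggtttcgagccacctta
The match covers bases -18 to -14 in Car9, -7 to -3 in Car14 and 3 to 7 in Car4, counted with the start site as base 1 and the base before it as -1. None of these matches lies within the palindrome CACGTG. Over the whole window, Car12 held neither core on either strand, and Car7, with 3 start sites, held GCGTG at -76 to -72 and at -10 to -6 of its first, at -94 to -90 of its last and no match at the site between them. Of 32851 RefSeq promoter windows of this length, 19.6% held ACGTG, 32.4% held GCGTG and 43.8% held either on either strand. A match is a string of letters and not a site shown to be bound. The Car12 and Car14 windows surround start sites at 66713686 and 95904685, which lie inside the gene spans given below. Along the gene those spans begin at 66712296 and 95905117, which the windows do not reach. The 3 genes with ACGTG near the start site read here ranked 3, 4 and 10 among the 10 levels below.

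Of the 10 members, 9 were expressed, against 53.4% of all genes. Car14 alone stayed below. By mean TPM the order was Car1, Car2, Car4, Car9, Car12, Car13, Car8, Car7, Car3 and Car14, from 4737 to 0.132. The 5 cytosolic genes together summed to 3489, 6464 and 6487 TPM in replicates 1, 2 and 3, and the 4 membrane-bound genes to 188, 218 and 357 TPM. Car1 alone took 77.9%, 85.2% and 82.0% of the summed TPM of the 10 members, Car2 16.0%, 10.9% and 12.1%, and Car4 3.88%, 2.22% and 4.21%. The family's RNA was thus carried by 3 genes in every library.

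**Figure D1:**
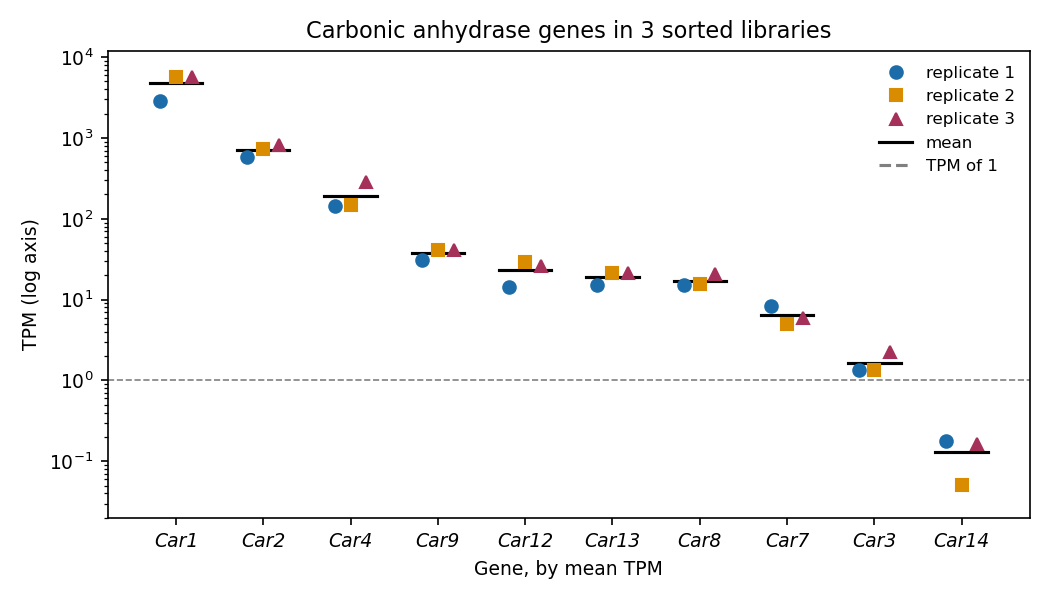
TPM (log axis) of the 10 carbonic anhydrase genes, ordered by mean TPM, with 1 symbol per library, a bar at the mean of the 3 libraries and a dashed line at a TPM of 1. Car1 lies between 2875 and 5707 TPM, Car4 is higher in replicate 3 than in the other libraries, and Car14 lies below the line in all 3.

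Car1 (Entrez 12346, chromosome 3, 14766214 to 14808365, reverse strand), the cytosolic enzyme of colonic epithelium and red cells, stood at 2875, 5707 and 5629 TPM in replicates 1, 2 and 3, a mean of 4737 ± 1613 (SD, n = 3). It was low in replicate 1, and replicates 2 and 3 lay close together at 1.99 and 1.96 times that level. These values place Car1 at percentile 99.79, 99.97 and 99.97 of the 24091 genes. The gene has 3 coding transcripts in GENCODE M21, and the table holds 1 value per gene, so it does not tell them apart.

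Car2 (Entrez 12349, chromosome 3, 14886269 to 14900770, forward strand) encodes the fast cytosolic enzyme found in many tissues. Its level was 589, 730 and 829 TPM in replicates 1, 2 and 3, or 716 ± 120 (SD, n = 3). The highest library was 1.41 times the lowest, a narrower spread than that of Car1. The ratio of Car1 to Car2 was 4.88, 7.82 and 6.79.

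Red blood cells also carry Car1 and Car2 products, so erythroid genes are given beside them. Hba-a2, an alpha-globin gene, stood at 127, 415 and 329 TPM and Hbb-bs, a beta-globin gene, at 89.4, 262 and 238 TPM, both lowest in replicate 1 as Car1 was. Of the 6 erythroid genes that the table holds, these 2 were expressed. The red cell anion exchanger gene Slc4a1 was at 0, 0.00801 and 0.0262 TPM and the haem synthesis gene Alas2 at 0.519, 1.43 and 0.768 TPM. The summed level of these 6 genes, 218, 678 and 568 TPM, was below that of Car1 in every library. The globin genes Hba-a1 and Hbb-bt, and Ahsp, were not found by symbol and are not in this sum. The part of red cells in the Car1 values was not tested. The 7 pan-epithelial genes as a group deviated by -0.08, 0.02 and 0.06 (log2) from their mean over the libraries, where Car1 deviated by -0.65, 0.34 and 0.32. The absorptive colonocyte genes, 9 of 9 expressed, deviated by -0.21, -0.04 and 0.26.

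The other cytosolic members were far lower. Car13 (Entrez 71934, chromosome 3, 14641727 to 14663002), a widely distributed cytosolic enzyme, stood at 15.02, 21.07 and 21.13 TPM, or 19.1 ± 3.51 (SD, n = 3). Car7 (Entrez 12354, chromosome 8, 104534694 to 104550347), best known from neurons, stood at 8.34, 4.99 and 5.89 TPM, or 6.41 ± 1.73. It was the only one of the 9 expressed members that was highest in replicate 1. Car3 (Entrez 12350, chromosome 3, 14863538 to 14872381), an enzyme of skeletal muscle and fat with weak activity, stood at 1.36, 1.36 and 2.28 TPM, or 1.66 ± 0.531. From the estimated depth, these Car3 values rest on about 65, 57 and 89 fragments. Of the 5 skeletal muscle genes 2 were expressed, with a summed level of 9.89, 12.2 and 7.98 TPM. Of the 5 adipocyte genes 1 was expressed, with a summed level of 7.19, 2.75 and 3.28 TPM and the leptin gene Lep listed at 0 in all 3 libraries. The expressed adipocyte gene, Cidec, was at 1.11, 1.94 and 2.04 TPM, while Cfd, which was below 1 TPM in replicates 2 and 3, made up 5.76 TPM of the sum in replicate 1. The expressed muscle genes were Acta1, at 7.36, 10.5 and 4.71 TPM, and Ckm, at 1.87, 1.16 and 2.93 TPM. Cidec and Ckm were thus highest in replicate 3 as Car3 was, and Acta1 and Cfd were not. The part of either cell type in the Car3 values was not tested.

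Car13, Car1, Car3 and Car2 lie in this order within 259 kb of chromosome 3, with Car1 on the reverse strand and the others on the forward strand. Car3 lies 13.9 kb before Car2 and 55.2 kb beyond Car1, yet its level was the lowest of the cluster in every library. Within each library Car1 was 2122, 4205 and 2473 times Car3, and Car2 was 435, 537 and 364 times Car3. Levels of neighbouring genes thus spanned more than 3 powers of 10, with no overlap between these genes in any library.

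**Figure D2:**
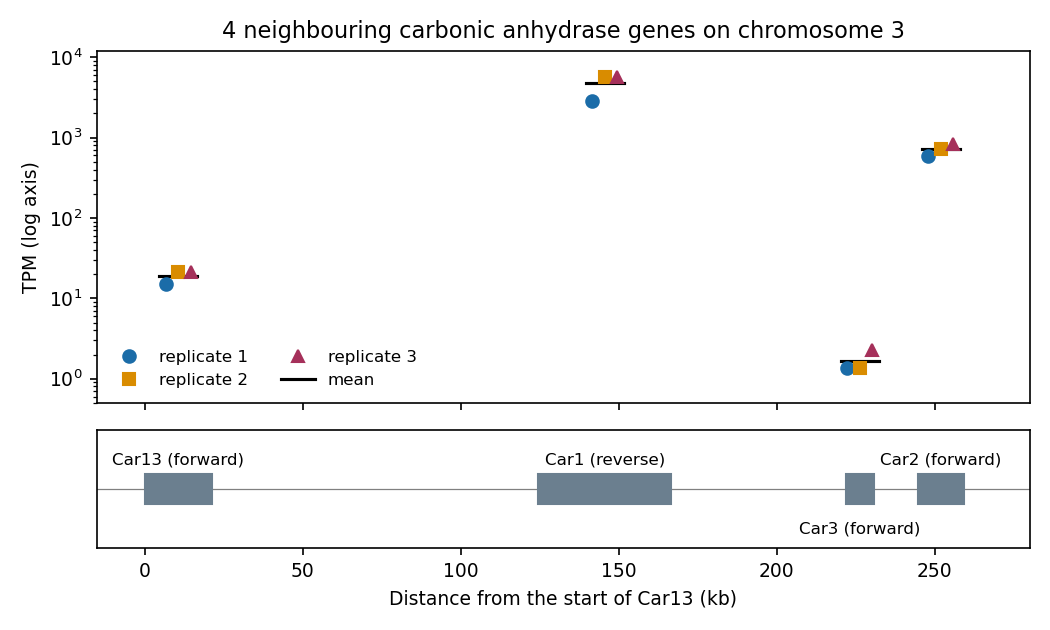
Upper panel, TPM (log axis) of Car13, Car1, Car3 and Car2 with 1 symbol per library and a bar at the mean. Lower panel, their positions to scale as distance in kb from the start of Car13, with the strand in brackets. Car1 and Car2, with means of 4737 and 716 TPM, lie on either side of Car3, which has a mean of 1.66 TPM.

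Car4 (Entrez 12351, chromosome 11, 84957754 to 84966054, forward strand) was the most abundant of the membrane-bound members. It stood at 143, 148 and 289 TPM in replicates 1, 2 and 3, or 194 ± 82.8 (SD, n = 3), at percentile 96.0 of all genes in replicates 1 and 2 and higher in replicate 3. Replicates 1 and 2 were close, at a ratio of 1.04, and replicate 3 was 2.02 times replicate 1 and 1.95 times replicate 2. Car1, in contrast, had replicates 2 and 3 together and replicate 1 apart, so the ratio of Car1 to Car4 was 20.1, 38.4 and 19.5.

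Car4 was set beside marker genes of epithelium in general and of blood capillaries. The cells had been sorted with markers that include podoplanin and LYVE1, which blood capillary cells largely lack. Whether blood capillary cells were collected was not tested. On the log2(TPM + 1) scale Car4 minus the mean of the 7 pan-epithelial genes was -3.06, -3.11 and -2.19 in replicates 1, 2 and 3, a mean of -2.79 ± 0.52, which makes the list 6.91-fold higher. It lay above the mean of the 10 blood capillary genes by 1.57, 1.81 and 2.53, a mean of 1.97 ± 0.50 or 3.92-fold. Each direction held in 3 of 3 libraries and each mean exceeded the SD between libraries. The exact two-sided sign-flip permutation test gave p = 0.25 for both, 0.25 after Benjamini-Hochberg adjustment over the 2 lists, and 3 libraries cannot give a smaller value.

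The blood capillary genes did not share 1 pattern across the libraries. Aqp1, Gpihbp1, Emcn, Podxl, Rgcc, Kdr and Cd300lg had replicate 3 lowest, as the lymphatic list did. Plvap, Cd36 and Flt1 had replicate 3 highest. All 10 were expressed, and their summed level was 844, 759 and 718 TPM in replicates 1, 2 and 3. Gpihbp1, which anchors lipoprotein lipase in capillaries, was lowest in replicate 3 at 88.9 TPM, against 193 and 176 in replicates 1 and 2. Emcn, an endothelial sialomucin, was at 156, 146 and 85.7 TPM. Plvap, the diaphragm protein of fenestrated capillaries, was highest in replicate 3 at 178 TPM, against 88.2 and 53.4, and Flt1, a VEGF receptor gene, was at 2.63, 2.67 and 11.98 TPM. Among absorptive colonocyte genes, the water channel gene Aqp8 was at 52.1, 43.9 and 121 TPM and the keratin gene Krt20 at 196, 213 and 330 TPM, both highest in replicate 3 as Car4 was. Others of that list differed, with Guca2b, a uroguanylin gene, at 73.5, 49.9 and 63.5 TPM, Tmigd1 at 24.4, 31.1 and 22.5 TPM and Ceacam1, an adhesion gene, at 584, 868 and 867 TPM. Gpihbp1, Emcn, Plvap, Flt1, Aqp8, Krt20, Guca2b, Tmigd1 and Ceacam1 were singled out after their values were seen. Replicate 3 was the highest library for 3 of the 10 capillary, 6 of the 9 colonocyte and 6 of the 8 goblet genes. Among all expressed genes the share was 40.5%. It was also the highest for 8 of 8 macrophage, 7 of 7 fibroblast and 6 of 6 smooth muscle genes, whose list means deviated by 0.82, 1.01 and 0.56 (log2) in replicate 3, where Car4 deviated by 0.66. The part of each of these cell types in the Car4 values was not tested.

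Car4's profile was compared with those of the 8436 other genes of mean TPM 10 or more, by the Euclidean distance between their 3 log2(TPM + 1) deviations. The nearest were Lcp1, a leukocyte actin-bundling gene, at 0.06, H2-DMb1, a gene of MHC class II loading, at 0.11, the actin crosslinker gene Flna at 0.12, Ly6g at 0.12 and the serum amyloid gene Saa1 at 0.12. Lcp1 was at 7.43, 7.97 and 15.4 TPM and Saa1 at 456, 470 and 825 TPM. A single gene, Lcp1, lay within 0.1 of Car4. Around Car1 63 genes lay within that distance, and the nearest were Deptor (0.01), Clmn (0.02), Farp2 (0.02), Cog5 (0.03) and Sipa1l1 (0.03). With 3 libraries a profile has few degrees of freedom, and these distances are a description.

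**Figure D3:**
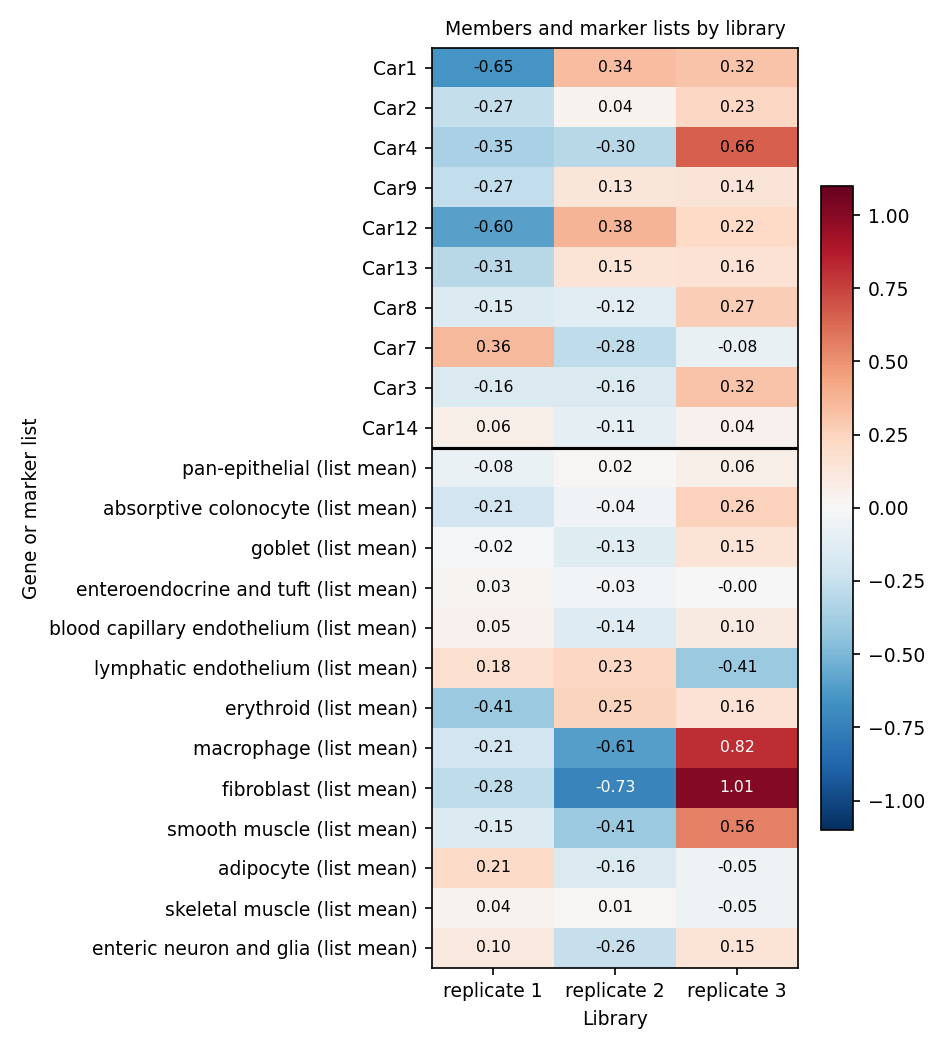
Deviation of log2(TPM + 1) from its mean over the 3 libraries, for the 10 members (above the line) and for the mean of each marker list (below it), with the value written in each cell. Car4 deviates by -0.35, -0.30 and 0.66 and Car1 by -0.65, 0.34 and 0.32, while the pan-epithelial list stays within 0.08 of 0.

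Car9 (Entrez 230099, chromosome 4, 43507026 to 43513729), a transmembrane enzyme of gut epithelium that is induced by hypoxia, stood at 30.7, 41.1 and 41.3 TPM, or 37.7 ± 6.03 (SD, n = 3). It was low in replicate 1 and nearly equal in the other two. All 15 genes of the hypoxia list were expressed, against 53.4% of all genes, and their median mean level was 24.7 TPM. The most abundant were the glycolytic genes Ldha at 788 ± 48.0 TPM and Pgk1 at 284 ± 4.56 TPM, then Ndrg1 at 142 ± 16.7, the glucose transporter gene Slc2a1 at 46.9 ± 6.16 and Epas1, which encodes a hypoxia-inducible factor, at 44.0 ± 11.998. The mean of this list deviated by -0.16, 0.08 and 0.08 (log2) across the libraries and Car9 by -0.27, 0.13 and 0.14. No library of another oxygen level was part of the design, so these levels cannot be read as induced or not.

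Car12 (Entrez 76459, chromosome 9, 66712296 to 66766845), a transmembrane enzyme of colonic and renal epithelium, stood at 14.2, 28.8 and 25.9 TPM, or 23.0 ± 7.74 (SD, n = 3). Like Car1 it was low in replicate 1, and replicate 2 was 2.03 times that level. Car14 (Entrez 23831, chromosome 3, 95897768 to 95905117), known from kidney, brain and retina, stood at 0.180, 0.0505 and 0.165 TPM. These values correspond to an estimated 4 to 9, 1 to 2 and 3 to 7 fragments, depending on which coding transcript is assumed, so its spread between libraries cannot be separated from counting error. The table also holds nonzero values far below the level of a single fragment, which whole counts would not give, so fragment numbers this small are approximate. Car8 (Entrez 12319, chromosome 4, 8141493 to 8239041), the member without activity and best known from Purkinje cells of the cerebellum, stood at 15.2, 15.6 and 20.8 TPM, or 17.2 ± 3.12. Of the 6 enteric neuron and glia genes 1 was expressed, with a summed level of 8.57, 4.73 and 9.44 TPM for the list. The part of such cells in the Car8 values was not tested.

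The order of the 10 levels was examined between neighbours within each library. Neighbours were set by the means of these same 3 libraries, so agreement in direction is partly built in. In 7 of the 9 neighbouring pairs the gene of higher mean was higher in 3 of 3 libraries, with differences from 0.74 ± 0.29 (Car9 over Car12) to 2.67 ± 0.35 (Car1 over Car2) on the log2(TPM + 1) scale. Car12 and Car13 differed by 0.21 ± 0.26 and Car13 and Car8 by 0.14 ± 0.24, both less than the SD between libraries, and replicate 1 had the opposite order in each. Car12, Car13 and Car8 were therefore not ordered by these data. The exact two-sided sign-flip permutation test gave p = 0.25 for the 7 pairs and 0.5 for the other 2, or 0.321 and 0.5 after Benjamini-Hochberg adjustment over the 9 pairs. With 3 libraries no pair could give a p below 0.25.

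Between libraries, 8 of the 9 expressed members were lowest in replicate 1, where 63.2% of all expressed genes were lowest, and 6 of 9 were highest in replicate 3, where 40.5% of expressed genes were highest. After median-of-ratios scaling between the libraries, 5 of the 9 members (Car1, Car2, Car9, Car12 and Car13) were lowest in replicate 1, against 39.7% of expressed genes, and 6 were highest in replicate 3, against 34.0%. With TPM rescaled without ribosomal protein genes and Mir6236 these counts were 5 and 4. The matching shares of all expressed genes were not computed for this rescaling, so these counts cannot be set against a background. A difference of 1 or more on the log2(TPM + 1) scale between the highest and lowest library was found for 5.10% of expressed genes. It was met by 1 of the 9 members, Car4, at 1.01, with Car1 at 0.99 and Car12 at 0.97 just under it. After median-of-ratios scaling no member met it, with Car4 at 0.97, Car7 at 0.83 and Car1 and Car12 at 0.77. Nor did any after the rescaling without ribosomal protein genes and Mir6236, with Car4 at 0.95. Without replicate 1 or without replicate 3 no member met it either, and Car4 then differed by 0.96 and by 0.05.

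The remaining genes of the family were low. Of the 8 genes of the list of other carbonic anhydrases and related proteins, 4 were expressed, close to the share of 53.4% of all genes. Ptprg, a receptor phosphatase with a carbonic anhydrase-like outer domain, stood at 6.25 ± 1.93 TPM, Car15, which encodes a further GPI-anchored enzyme, at 4.55 ± 0.960, Car11, a relative without activity, at 2.24 ± 0.160 and the mitochondrial enzyme gene Car5b at 1.74 ± 0.142. The other mitochondrial gene, Car5a, stood at 0.710, 0.959 and 1.21 TPM. Ptprz1 was at 0.237 ± 0.107 TPM and Car10 at 0.211 ± 0.0273. Car6, the secreted enzyme of saliva, was at 0.105 TPM in replicate 1, about 5 estimated fragments, and listed at 0 in the other two libraries. The 8 genes together summed to 13.9, 17.0 and 17.8 TPM, less than Car9 alone.

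Carbonic anhydrases act with transporters that move their products, and 30 such genes were listed, of which Aqp1, Aqp8, Slc26a3 and Slc4a1 are also on the marker lists above. Of them 22 were expressed, 7 stayed below a TPM of 1 in all libraries, and the median of their mean levels was 21.8 TPM. The 5 most abundant were Bsg (basigin), the chaperone of lactate transporters, at 958 ± 15.6 TPM, the water channel gene Aqp1 at 199 ± 13.8, the exchanger scaffold gene Slc9a3r1 at 125 ± 25.5, the lactate and butyrate transporter gene Slc16a1 at 102 ± 21.3 and Slc26a3, the chloride and bicarbonate exchanger of the colonocyte surface, at 94.5 ± 35.7. Rhcg, an ammonia transporter gene, was listed at 0 in every library. Replicate 1 was lowest or tied for lowest in 20 of the 30 genes, the tie being Rhcg at 0. Genes that were not expressed are in this count, while the 63.2% given above covers expressed genes only. The sulfate transporter gene Slc26a2 was at 28.6, 84.1 and 99.9 TPM, and the sodium and proton exchanger gene Slc9a3 at 11.6, 31.5 and 28.3 TPM. Atp12a, a proton and potassium pump gene of the colon, was at 17.0, 21.2 and 50.5 TPM, with replicate 3 apart as in Car4. Slc26a2, Slc9a3 and Atp12a were singled out after their values were seen.

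**Figure D4:**
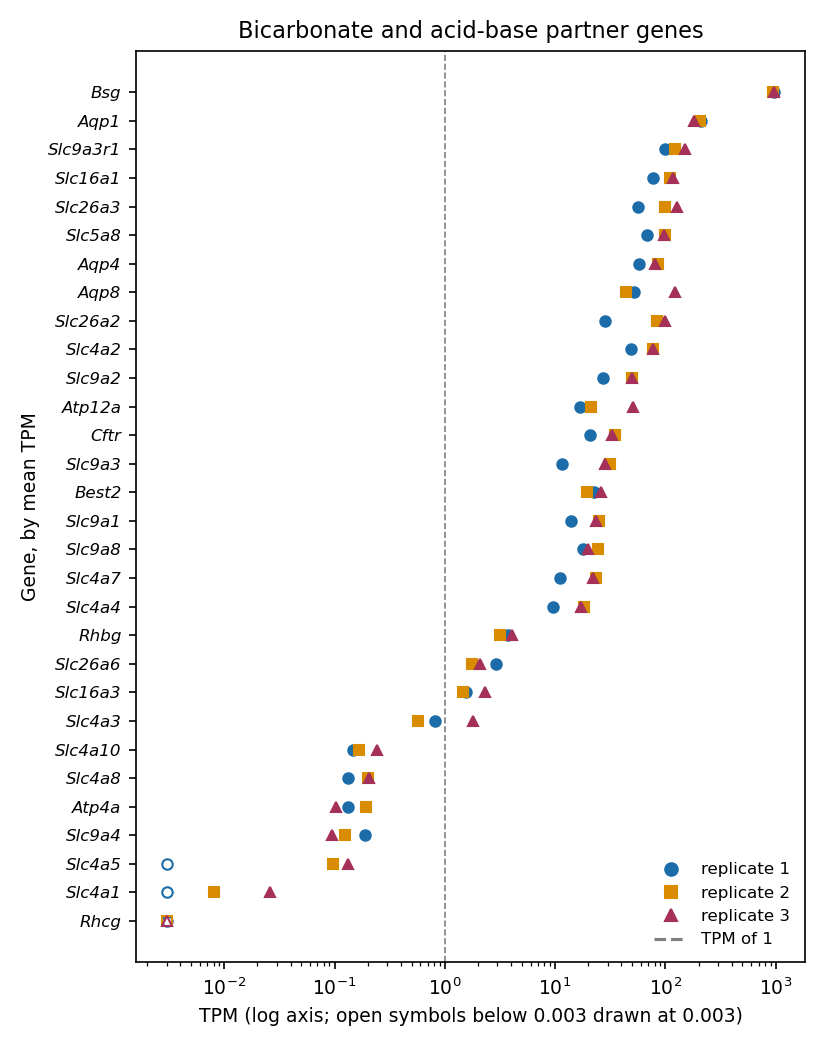
TPM (log axis) of 30 genes of bicarbonate and acid-base transport, ordered by mean TPM, with 1 symbol per library and a dashed line at a TPM of 1. Bsg is the most abundant at 958 TPM, Aqp8 and Atp12a have replicate 3 apart from the others, and Rhcg, listed at 0, is drawn at the left edge with open symbols.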

How the data were processed

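The authors deposited 1 table per library with a TPM value for each of 24091 genes, per the file headers. The submitters' processing notes name mm10, Cell Ranger 6.0.1 and HTSeq, with no roles; how TPM was computed is not given in the sources used here. Replicate numbers come from the sample titles. Members and lists were chosen with earlier results of these data known.

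Values were taken as log2(TPM + 1), and folds on this scale understate differences of low genes. Expressed means a level of at least 1 TPM in each library. Within-library differences were tested by exact permutation (two-sided, flipping signs). The text names all members and family genes, the 5 most abundant genes of the transport and hypoxia lists and any at 0, leading marker genes, and the 5 nearest profiles to Car4 and to Car1. Further summed levels in replicates 1, 2 and 3 were those of goblet (19011, 16474 and 17063 TPM), enteroendocrine and tuft (57.1, 38.0 and 67.3) and smooth muscle genes (212, 170 and 370). Ccl21a, Hba-a1, Hbb-bt and Ahsp were not found by symbol.

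TPM carries no depth. Of 9832 genes with 1 RefSeq transcript and a known length, those longer than 1000 bases with a low nonzero value were used. Low meant TPM times effective length below 300, met by 577, 628 and 592 genes in replicates 1, 2 and 3. Their values tended to fall on steps of this product (phase scores 0.552, 0.578 and 0.606, where 1 would mean whole steps throughout). This gave an estimate of 32.6, 27.7 and 26.3 fragments per TPM for each 1000 effective bases in replicates 1, 2 and 3. The smallest nonzero TPM was 2.82e-07, 3.79e-09 and 8.15e-10, which whole fragments would not give, so part of the values must rest on fractional assignments and fragment numbers are approximate. Gene positions and promoters are RefSeq's on GRCm38.p6, and transcripts GENCODE M21's. The call of a difference between libraries, the profile distance and the sign-flip test were tried on simulated data. The depth estimate was not. Alternatives were another pseudocount, other TPM thresholds, the list median, rescaling without ribosomal protein genes and Mir6236, median-of-ratios scaling and leaving out each replicate. The tools were scipy 1.17.1, pandas 2.3.3, numpy 2.4.6 and matplotlib 3.10.9 under Python 3.11.15.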

Additional observations from a re-analysis of the deposited data

How the results depend on the processing

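No pairing between groups was possible because the series holds 1 group, and the tested differences were taken within each library. Of 148 recomputed values none changed direction and 137 stayed within the spread of the 3 libraries, on the same side of 0, or, for counts, within 1.5 times. Leaving out 1 of 3 libraries cannot move a mean or a mean share by more than the SD. Many of the 148 values are of this kind, so the count of 137 says little on stability. The number of members differing by 1 or more (log2) between libraries was 1 as reported. It was 2 with a pseudocount of 0.1, which adds Car12, and 0 without ribosomal protein genes and Mir6236 and under median-of-ratios scaling. Leaving out a replicate gave 0 to 1, with 0 without replicate 1 or replicate 3. Rescaling without these genes raised the means of 6 members by more than their SD, as its smaller total does for every gene, among them Car2 to 952 and Car9 to 50.1 TPM. Median-of-ratios scaling for the Car4 deviations was added after the data were seen. Depth is known only as an estimate and limits Car14 and Car6 most. With 3 libraries no sign-flip p can fall below 0.25, and with 2 not below 0.5, so the tests say nothing on stability.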
